A study of Rattus norvegicus with 4 samples.

Results

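Wide shared open regions were selected by the width of their ATAC-seq peaks. The peak lists of 4 libraries were merged wherever peaks shared at least 1 bp, which gave 58879 merged regions. Of these, 31790 held a peak in all 4 lists, and 31191 of those lay on chromosomes 1 to 20. A region was kept as wide where each of the 4 lists held at least 1 single peak of 1200 bp or more. This left 977 wide regions, 3.13% of the 31191 shared regions on the numbered chromosomes. The remaining 30214 shared regions on the same chromosomes are called the other shared regions. All coordinates are on the rat assembly rn6.

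The cells were primary rat Schwann cells (SCs) of the sciatic nerve, the glia that wrap and myelinate peripheral axons, grown with forskolin and heregulin-β1. In Lenti-AS libraries the SCs carried a lentivirus that overexpresses Egr2-AS, an antisense RNA of the promoter of Egr2, a master transcription factor of myelination. In Lenti-GFP libraries they carried the backbone virus with GFP, and both groups were infected for 48 hours. There were 2 libraries per group of 100000 cells each, and an uninfected group was not analysed here. According to the study's methods, Egr2-AS was cloned in a vector with the marker DsRed, so the antisense RNA and the fluorescent marker cannot be told apart between the groups. The labels call the libraries biological replicates without naming separate animals or cultures, so every p-value below measures only the spread between these libraries.

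ATAC-seq uses the Tn5 transposase to cut and tag DNA that is not packed into nucleosomes. A peak is therefore a stretch where cuts pile up, and most peaks cover a nucleosome-free gap of an enhancer or promoter. A wide peak spans several such gaps or a long stretch with few stable nucleosomes, as is known for promoters of highly expressed genes and for dense enhancer clusters. Which genes these regions lie in or near was not analysed here, since no annotation of rn6 was used. For the same reason the labelled cell type was not checked against marker genes.

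The deposited lists held 54289 and 35646 peaks in Lenti-GFP replicates 1 and 2, and 43312 and 46125 in Lenti-AS replicates 1 and 2. Lenti-GFP replicate 1 stood apart from the rest. Depth was taken as the genome-wide background recovered from the peak scores, divided by the smallest peak width of the list. Lenti-GFP replicate 1 had 2.38 times the depth of Lenti-GFP replicate 2, against 1.06 and 1.41 times for Lenti-AS replicates 1 and 2. Peaks of at least 1200 bp made up 8.15% of its list, against 3.47%, 3.91% and 4.27% in Lenti-GFP replicate 2 and Lenti-AS replicates 1 and 2. The group comparisons of width, fold percentile and pileup over background in wide regions are therefore also given without this library. Tests per region use ranks within a list.

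Which lists called a region wide varied with the library. Among the shared regions, 26704 were wide in no list, 2317 in exactly 1 list, 688 in 2 lists, 505 in 3 lists and 977 in all 4. Of the 2317 regions that were wide in exactly 1 list, 2183 (94.2%) were wide in Lenti-GFP replicate 1. Of the 505 that missed a single list, 366 (72.5%) missed Lenti-GFP replicate 2, while 90 missed Lenti-AS replicate 1, 40 missed Lenti-AS replicate 2 and 9 missed Lenti-GFP replicate 1. Regions that were wide in both Lenti-AS lists and in neither Lenti-GFP list numbered 35, and the opposite pattern was found in 90. Leaving the deepest library aside, the same rule over the other 3 lists gave 986 regions, while leaving out Lenti-GFP replicate 2 gave 1343.

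Within the wide regions, the widest peak had a median of 1587 bp in Lenti-GFP replicate 1 (range 1240 to 3434) and 1385 bp in Lenti-GFP replicate 2 (1200 to 2785). The medians were 1417 bp in Lenti-AS replicate 1 (1200 to 3054) and 1435 bp in Lenti-AS replicate 2 (1201 to 3060). Both Lenti-AS libraries thus lay between the Lenti-GFP libraries, and the groups overlapped. For scale, the other shared regions had median widths of 749, 505, 572 and 603 bp in the same order of libraries. The group means of the medians were 1426 ± 12.7 bp (SD, n = 2) in Lenti-AS and 1486 ± 143 bp (SD, n = 2) in Lenti-GFP. This is a description with no test, because width chose the members. Without Lenti-GFP replicate 1 the difference turned from -60 bp to 41 bp.

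**Figure D1:**
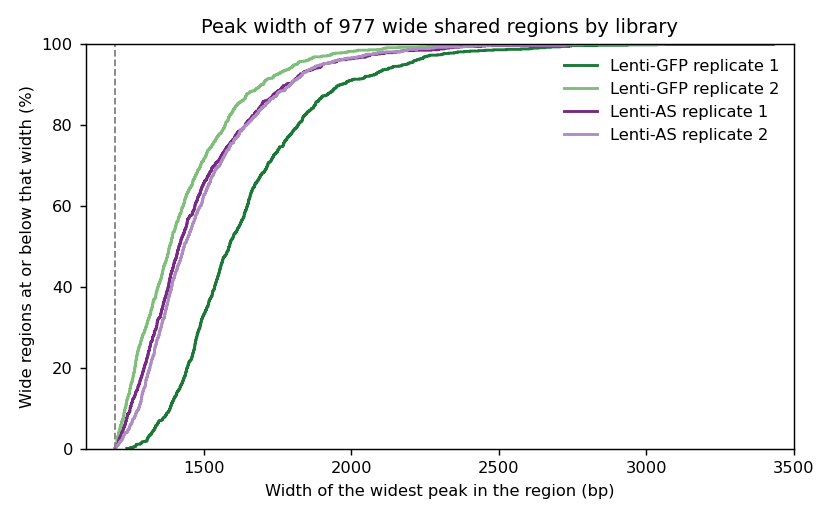
Cumulative share of the 977 wide regions (vertical axis, %) by the width of the widest peak in the region (horizontal axis, bp), with 1 line per library and the 1200 bp limit dashed. The line of Lenti-GFP replicate 1 (median 1587 bp) runs to the right of the other 3, whose medians are 1385, 1417 and 1435 bp.

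Region by region, the widest peak was found in Lenti-GFP replicate 1 for 818 of the 977 regions, and the narrowest in Lenti-GFP replicate 2 for 545. The libraries of most similar depth, Lenti-AS replicate 1 and Lenti-GFP replicate 2, differed by a median of 27 bp, and 635 regions (65.0%) were wider in Lenti-AS replicate 1. The same pair differed by a median of 50 bp over the other shared regions, of which 69.6% were wider in Lenti-AS replicate 1. Against Lenti-GFP replicate 1, the peaks of Lenti-AS replicate 1 were narrower by a median of 141 bp, given as -141 bp in the direction Lenti-AS minus Lenti-GFP. Both Lenti-GFP replicates differed from each other by a median of 176 bp, with 948 regions wider in replicate 1. The spread within Lenti-GFP was thus larger than any median difference between the groups.

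Most wide regions were only a little wider than the limit. The smallest of the 4 widths had a median of 1346 bp, with 360 regions from 1200 to under 1300 bp, 255 from 1300 to under 1400 bp and 143 from 1400 to under 1500 bp. In all 4 lists, 219 regions reached 1500 bp, 12 reached 2000 bp and 2 reached 2500 bp. At the limit itself, chr5:72102852-72104312 was just inside with widths of 1461, 1224, 1200 and 1289 bp in Lenti-GFP replicates 1 and 2 and Lenti-AS replicates 1 and 2. In the same order, chr18:16542877-16544764 was just inside with 1877, 1200, 1213 and 1233 bp. Just outside were chr6:135829334-135831046 with 1551, 1199, 1384 and 1646 bp, and chr7:11907240-11908615 with 1307, 1199, 1225 and 1217 bp. Both just outside were kept out by Lenti-GFP replicate 2 alone.

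Most wide regions held a single peak per list. This was so in all 4 lists for 931 of the 977 (95.3%), near the 95.7% of the other shared regions. The single peak of a list did not always span the whole merged region. The merged length ran from 1270 to 3520 bp with a median of 1621 bp. The widest list exceeded the narrowest by a median of 1.16 times, a ratio that the limit in every list holds down. The wide regions took up 1.61 and 1.41 Mb in Lenti-GFP replicates 1 and 2, and 1.46 and 1.47 Mb in Lenti-AS replicates 1 and 2. They were 1.82% to 2.83% of the peaks of a list and 4.57% to 7.17% of its peak bases, lowest in Lenti-GFP replicate 1 and highest in Lenti-GFP replicate 2 on both counts.

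The 6 widest regions, ranked by the smallest of their 4 widths, lay on 5 chromosomes. The widest was chr1:70210630-70214149, with peaks of 3434 and 2785 bp in Lenti-GFP replicates 1 and 2 and of 2725 and 2726 bp in Lenti-AS replicates 1 and 2. The next was chr2:148606852-148609669, with 2710, 2630, 2746 and 2785 bp in the same order. These were the only regions of at least 2500 bp in all 4 lists. The others were chr16:47717076-47719529 (2316 to 2454 bp), chr1:251419273-251421621 (2271 to 2349 bp), chr9:50556392-50559082 (2265 to 2676 bp) and chr7:65274070-65276473 (2232 to 2362 bp). Their nearest shared neighbours lay 29.8 to 65.2 kb away, beyond the median gap of 16.9 kb for all wide regions. By the deposited fold enrichment, the summit pileup over the local background after 1 is added to each, all 6 had a mean percentile below 50 among shared regions.

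Strength set the wide regions apart only on some scales. The pileup, the number of fragments stacked at the summit, had a median of 158 and 101 in Lenti-GFP replicates 1 and 2 and of 143 and 142 in Lenti-AS replicates 1 and 2. In the same order the other shared regions had 78, 40, 53 and 59, so wide regions stood 2.03 to 2.70 times as high. Yet the median fold enrichment over local background was 4.91, 6.42, 7.29 and 6.44 in wide regions, close to the 5.04, 5.85, 6.85 and 6.19 of the other shared regions. Without the added 1, the plain ratio of pileup to local background was 5.03, 6.81, 7.65 and 6.73 in wide regions and 5.38, 6.90, 8.09 and 6.97 in the other shared regions. The wide regions were thus higher in 3 of the 4 lists by the deposited fold and lower in all 4 by the plain ratio. The local background itself was raised. It stood at 6.10, 7.30, 8.55 and 7.26 times the genome-wide background in wide regions and at 2.97, 3.08, 3.23 and 3.10 times in the other shared regions. Width and these measures come from the same peak calls, so the contrast with other shared regions is a description with no test.

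Ranked within each list, with 100 as the highest percentile among shared regions, the median wide region stood at 92.7, 91.4, 92.1 and 91.7 by pileup in Lenti-GFP replicates 1 and 2 and Lenti-AS replicates 1 and 2. By -log10 p of the peak it stood at 82.4, 84.7, 85.2 and 84.0. By fold enrichment it stood at 46.5, 59.4, 55.5 and 53.7. By pileup, 546 to 583 of the 977 regions lay above the 90th percentile of a list and 9 to 20 lay below its median. By fold enrichment, 13 to 32 lay above the 90th percentile and 363 to 547 lay below the median. Wide regions were therefore tall in fragments and middling in fold enrichment in every library.

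**Figure D2:**
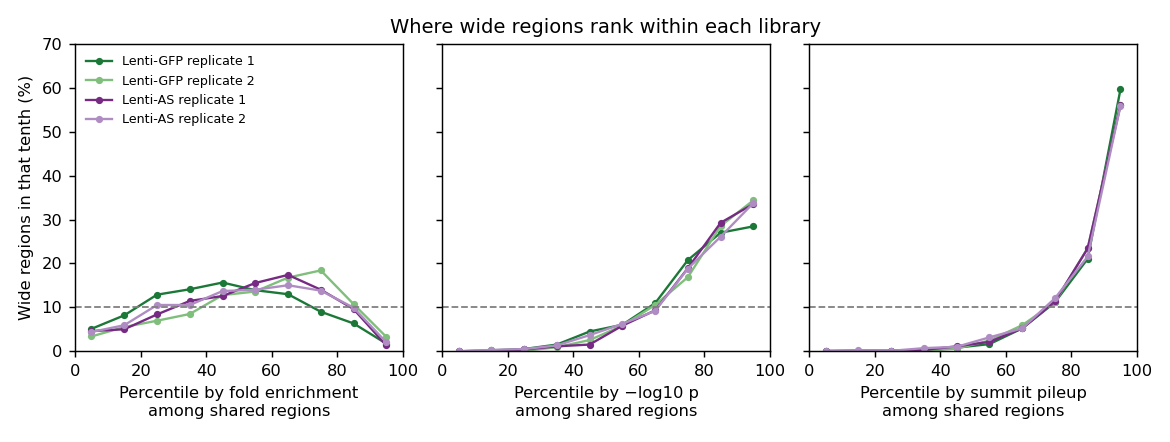
Share of the 977 wide regions (vertical axis, %) by percentile among shared regions (horizontal axis, in equal bins of 10 percentile points), for fold enrichment, -log10 p and summit pileup, with 1 line per library and the even share per bin dashed. By pileup, 546 to 583 regions sit above the 90th percentile, whereas by fold enrichment 13 to 32 do.

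The strongest wide regions by mean fold percentile were also tall by pileup. The first, chr17:70245137-70246609, had folds of 8.01 and 11.1 in Lenti-GFP replicates 1 and 2 and 14.0 and 13.0 in Lenti-AS replicates 1 and 2, with pileups of 180, 125, 178 and 181. The next, chr10:29288497-29290052, had folds of 8.26, 10.6, 11.9 and 11.4 in the same order. Both lay above the 92nd percentile by fold in every library. The folds of the groups did not overlap in either, but on ranked folds neither passed the test (adjusted p = 0.731 and 0.975, limma). Median folds of the other shared regions did not overlap between the groups either (5.04 and 5.85 in Lenti-GFP, 6.85 and 6.19 in Lenti-AS). The other 4 of the strongest 6 were chr9:71397645-71399381, chr9:1145095-1146505, chr3:60795153-60796620 and chr20:4697669-4699192, with mean fold percentiles of 93.2, 92.8, 92.5 and 91.3.

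The weakest wide regions by fold were tall by pileup among shared regions, but only 1 of the 4 lay above the upper quartile of wide regions in every list. Folds at chr1:11911698-11914762 were 2.04, 2.41, 2.20 and 2.23 in Lenti-GFP replicates 1 and 2 and Lenti-AS replicates 1 and 2, below the 1st percentile in each list. Its pileups were 161, 132, 152 and 151, above the 93rd percentile of shared regions in each list. Its local background stood at 15.7, 27.4, 32.7 and 24.0 times the genome-wide one. The region chr18:27656124-27657961 had folds of 2.10, 2.84, 2.35 and 2.32 with pileups of 215, 164, 233 and 240. By pileup it ranked above the 99th percentile of shared regions in every list, and it was the region above the upper quartile of wide regions in every list. The remaining weakest regions, chr1:221149933-221151640 and chr7:12422882-12424758, had folds between 2.28 and 2.88 and mean pileup percentiles of 95.4 and 96.1. Since the fold is pileup over local background, a low fold beside a tall pileup is a high local background by definition. What raised the local background in these 4 regions was not tested.

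Width and fold are set side by side here as a description, since width chose the members and cut its own range at 1200 bp. Spearman's rho between width and fold over the 977 regions was -0.268 and -0.290 in Lenti-GFP replicates 1 and 2 and -0.457 and -0.377 in Lenti-AS replicates 1 and 2. Over the 30214 other shared regions it was 0.317, 0.477, 0.388 and 0.377, and these were chosen by missing the width limit. Width and pileup had a rho between -0.061 and 0.011 among wide regions. The regions behind each coefficient share a library and its peak calls, and nothing is read from the contrast. Between libraries the order of the wide regions had a rho of 0.904 to 0.956 by pileup and of 0.889 to 0.950 by fold.

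The summit, the point of highest pileup, was placed alike in most wide and other shared regions, and the shares differed mainly in the distant summits. All 4 summits lay within 50 bp of each other in 30.7% of wide and 30.9% of other shared regions. Between pairs of libraries, the median distance was 28 to 40 bp in wide and 28 to 38 bp in other shared regions. All 4 summits lay within 100 bp of each other in 506 of the 977 (51.8%), against 57.9% of the other shared regions, and within 500 bp in 853 (87.3%), against 98.4%. The 505 regions that were wide in exactly 3 lists stood between, with 56.6% within 100 bp and 91.1% within 500 bp, so these shares are not particular to the wide regions. Between any pair of libraries, 5.22% to 6.65% of wide regions had summits over 500 bp apart, against 0.586% to 0.751% of the other shared regions. The 4 pairs across groups had 5.73% to 6.65%, the pair of Lenti-GFP replicates 6.14% and the pair of Lenti-AS replicates 5.22%. The median length of the merged region was 1621 bp in wide and 783 bp in other shared regions, and its part in these shares was not tested.

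In 7 wide regions (0.716%) the summits lay within 100 bp inside each group and over 500 bp apart between the groups. This was so in 0.0705% of all 31191 shared regions and in 10 (0.356%) of the 2806 other shared regions at least as long as the shortest wide region. The rule for these 7 was chosen after the summits had been seen, and they carry no test. At chr1:197918040-197919978 the summit stood 408 and 404 bp from the region's start in Lenti-GFP replicates 1 and 2 and 1721 and 1705 bp from it in Lenti-AS replicates 1 and 2. At chr5:160094139-160096120 it stood at 835 and 808 bp in Lenti-GFP and at 1739 and 1746 bp in Lenti-AS. In both, the summit of the Lenti-AS libraries lay at the higher coordinate, as in 3 others of the 7. The reverse was seen at chr1:199216344-199217874, with 1260 and 1275 bp in Lenti-GFP and 387 and 392 bp in Lenti-AS, and at chr5:153184161-153185995, with 1337 and 1381 bp against 812 and 804 bp. The other 3 regions were chr8:48467013-48468754, chr11:47112929-47114465 and chr12:51164819-51166580.

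Wide regions seldom had a close neighbour. Another shared region lay within 5 kb, measured between edges, for 86 of the 977 wide regions (8.80%, 95% Wilson interval 7.18% to 10.7%), against 5451 of the other shared regions (18.0%, 17.6% to 18.5%). These intervals cover counting error only and treat regions as independent. Between midpoints, the shares were 4.71% and 14.6%. Counting neighbours found in any list, the shares were 15.6% and 30.5%. The gap narrowed with distance, to 55.0% against 60.5% within 20 kb and 96.1% against 94.4% within 100 kb. Width enters these distances, so the shares are not independent of the rule and were not tested.

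On a larger scale, wide and other shared regions had similar surroundings. The median number of shared regions within 500 kb was 19 for wide and 20 for other shared regions. Another wide region lay within 500 kb of 491 wide regions (50.3%) and of 45.0% of the other shared regions. The nearest wide region was a median of 490 kb away. Within 20 kb of each other lay 37 wide regions in 18 runs, and within 100 kb 152 wide regions in 69 runs. The closest pair, with a gap of 4.58 kb, spanned chr17:10457007-10464463. The longest run with gaps of at most 20 kb held 3 regions over chr1:222178123-222208244, and the longest with gaps of at most 100 kb held 5 over chr4:157451805-157706972.

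The 3 neighbours on chromosome 1 differed in strength. Folds at chr1:222178123-222179625 were 4.32 and 6.79 in Lenti-GFP replicates 1 and 2 and 7.02 and 6.47 in Lenti-AS replicates 1 and 2. At chr1:222206237-222208244 they were 2.99, 3.69, 4.17 and 3.53 in the same order. The latter ranked at the 5.68th to 8.30th percentile by fold, and the former at the 31.4th to 65.1st. Pileup at the first, 139 to 186, also exceeded that of the last, 69 to 125, in each library.

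Every numbered chromosome carried wide regions, from 21 on chromosome 20 to 143 on chromosome 1. As a share of the shared regions of a chromosome, wide regions were most frequent on chromosome 1 (3.81%, 95% Wilson interval 3.24% to 4.47%), chromosome 12 (3.79%, 2.74% to 5.23%), chromosome 9 (3.68%) and chromosome 17 (3.60%). They were least frequent on chromosome 3 (53 of 2297, 2.31%, 1.77% to 3.01%) and chromosome 20 (2.42%). The genome-wide share, which includes these chromosomes, was 3.13%. The intervals of chromosomes 1 and 3 left out this share and did not overlap each other. The 20 intervals are unadjusted, cover counting error only and treat neighbouring regions as independent. No chromosome is called different on their basis. The wide regions of chromosome 3 had a median of 24 shared regions within 500 kb, and those of chromosome 1 had 20.

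**Figure D3:**
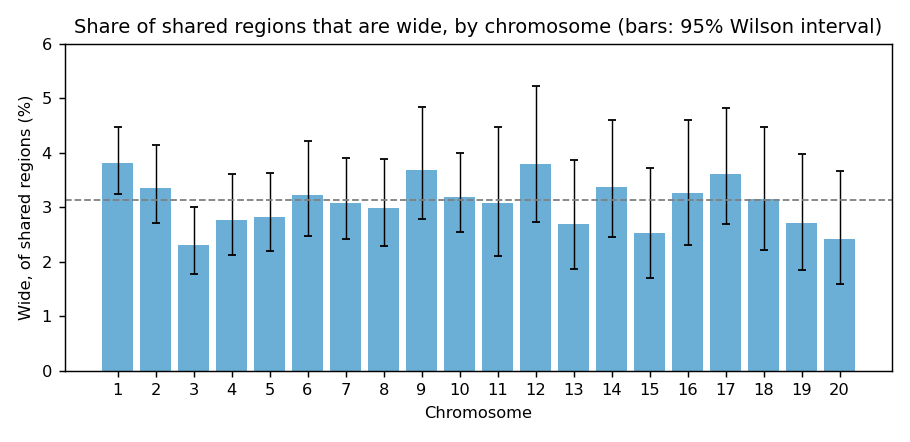
Share of shared regions that are wide (vertical axis, %) on each of the 20 numbered chromosomes (horizontal axis), with 95% Wilson intervals as error bars and the genome-wide 3.13% dashed. Shares run from 2.31% on chromosome 3 to 3.81% on chromosome 1. Most intervals overlap, but those of chromosomes 1 and 3 do not overlap each other.

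Whether overexpression of Egr2-AS changed the wide regions was asked on ranks, since the deposited values are folds and p-values per library and not read counts. Folds were ranked within each list over all 31790 shared regions, turned into normal scores and compared with limma. After Benjamini-Hochberg adjustment, 0 wide regions were higher and 0 lower in Lenti-AS, where 0% of all 31790 regions were called in either direction. The smallest adjusted p of a wide region was 0.399. At an unadjusted p under 0.05, 9 wide regions (0.921%) were higher, against 3.87% of all regions tested, and 6 (0.614%) were lower, against 4.80%. The adjusted counts equal those over all regions, so they say nothing particular about wide regions. The balance of the unadjusted calls moved with the library, from 4 higher and 22 lower without Lenti-GFP replicate 1 to 25 higher and 7 lower without Lenti-GFP replicate 2. In bulk libraries, fewer cells with a region open and less accessibility per cell cannot be told apart.

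The median strength of the wide regions was compared over the 4 libraries. The median fold percentile was 54.6 ± 1.32 (SD, n = 2) in Lenti-AS and 53.0 ± 9.08 (SD, n = 2) in Lenti-GFP, with p = 1 in a two-sided exact permutation test. With 2 libraries against 2 the smallest p this exact test can give is 0.33, so it cannot reach 0.05. The difference of 1.66 percentile points was smaller than the spread within Lenti-GFP and turned to -4.76 without Lenti-GFP replicate 1. Pileup over the genome-wide background had medians of 31.6 and 50.9 in Lenti-GFP replicates 1 and 2 and of 68.3 and 50.6 in Lenti-AS replicates 1 and 2. The groups overlapped, as Lenti-AS replicate 2 lay just under Lenti-GFP replicate 2. Their means were 59.4 ± 12.5 (SD, n = 2) and 41.3 ± 13.6 (SD, n = 2), with p = 0.667 in the two-sided exact permutation test. The other shared regions shifted the same way, with means of 23.2 ± 3.02 and 17.9 ± 3.22 (SD, n = 2) and p = 0.33 in the same exact test, the smallest it can give. Divided by the median of the other shared regions in each library, the pileup of wide regions was higher in Lenti-AS by 0.277, from ratios of 2.03 and 2.53 in Lenti-GFP and 2.70 and 2.41 in Lenti-AS. Those ratios overlapped between the groups. Without Lenti-GFP replicate 1, the remaining Lenti-GFP ratio of 2.53 lay between the Lenti-AS ratios of 2.41 and 2.70. Without Lenti-GFP replicate 1 the undivided difference of 18.2 fell to 8.52, and without Lenti-AS replicate 1 it fell to 9.35.

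Some wide regions separated the groups without overlap. By fold rank, both Lenti-AS libraries stood above both Lenti-GFP libraries in 184 wide regions (18.8%), against 20.7% of all shared regions, and below them in 128 (13.1%), against 18.0%. By -log10 p rank, 256 were above (background 21.5%) and 152 below (background 20.2%). By pileup rank, 197 were above (background 23.2%) and 240 below (background 22.5%). By rank of the local background, 206 were above (background 30.7%) and 320 below (background 29.0%). By width rank, 113 were above (background 18.0%) and 121 below (background 17.2%), a count from which nothing is read because width chose the members.

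The direction of the small shifts depended on the scale. The mean score was higher in Lenti-AS for 607 of the 977 wide regions by -log10 p and for 538 by fold, but for 428 by pileup and for 403 by local background. The wide regions thus ranked lower by pileup and by local background in Lenti-AS more often than not, and higher by fold and -log10 p. As shares, these were 62.1%, 55.1%, 43.8% and 41.2%, against 51.5%, 52.2%, 51.1% and 51.5% of all shared regions in the same order of measures. They are descriptions over regions of 4 libraries, with no test, and are not given with a library left out. The difference in median fold percentile turned from 1.66 to -4.76 without Lenti-GFP replicate 1.

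**Figure D4:**
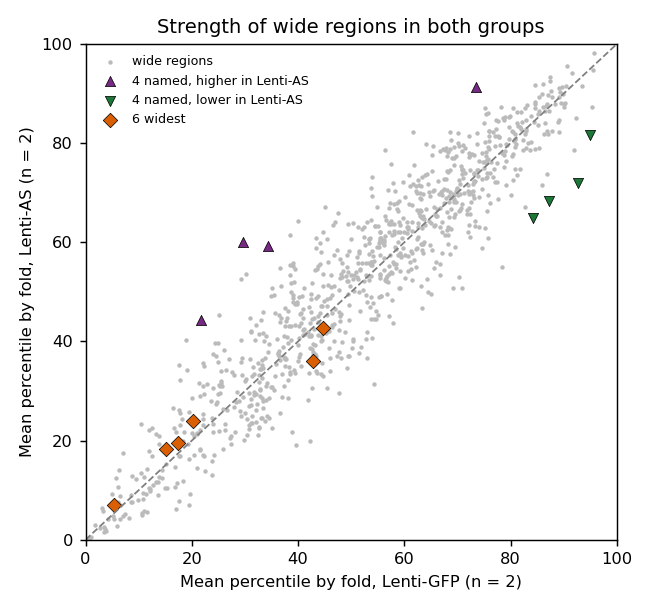
Mean percentile by fold enrichment among shared regions in Lenti-GFP (horizontal axis) against Lenti-AS (vertical axis), each the mean of 2 libraries, with 1 grey point per wide region and equality dashed. The 977 points lie along the line, with the 4 named regions higher in Lenti-AS above it, the 4 named lower ones below it, and the 6 widest regions in the lower part of the scale.

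The largest rank difference upward among regions without overlap was at chr8:31815835-31817487. Folds there were 4.23 and 4.95 in Lenti-GFP replicates 1 and 2 and 7.67 and 6.83 in Lenti-AS replicates 1 and 2, or percentiles of 29.4, 29.9, 60.4 and 59.8. The difference in normal scores, Lenti-AS minus Lenti-GFP, was 0.791 ± 0.260 (SE), with an adjusted p of 0.439 in limma. At chr8:99820168-99821606 the folds were 6.50 and 6.91 in Lenti-GFP and 11.0 and 10.5 in Lenti-AS, a score difference of 0.738 (adjusted p = 0.495, limma). At chr4:66275553-66277443 they were 4.15 and 4.28 against 6.66 and 5.81, and at chr16:17537968-17539596 they were 4.14 and 5.48 against 7.71 and 6.69. In each of these 4 regions both Lenti-AS folds lay above both Lenti-GFP folds, and no adjusted p in limma was under 0.439. The median folds of the other shared regions also lay higher in both Lenti-AS libraries, at 6.85 and 6.19 against 5.04 and 5.85. Higher unranked folds in Lenti-AS are thus not particular to these 4 regions.

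The largest rank difference downward was at chr7:30023323-30024875. Its folds of 7.97 and 9.54 in Lenti-GFP replicates 1 and 2 and 8.74 and 7.71 in Lenti-AS replicates 1 and 2 overlapped, but its fold percentiles did not, at 94.3 and 91.2 against 72.1 and 71.9. Its score difference was -0.885 ± 0.264 (SE), with an adjusted p of 0.399 in limma, the smallest of any wide region. At chr8:64572390-64573947 the percentiles were 95.3 and 94.7 in Lenti-GFP and 79.3 and 83.9 in Lenti-AS, with a score difference of -0.743 (adjusted p = 0.455, limma). At chr19:56337794-56339246, with pileups of 276 to 321 the tallest region named here, they were 93.5 and 81.0 against 62.3 and 74.4. At chr18:72004267-72005751 they were 91.4 and 77.0 against 56.5 and 73.4. In all 4 of these regions the ranks of the groups separated while the folds themselves overlapped.

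The direction of the pileup shift followed how densely open regions were packed around the wide region. Shared regions were divided in 4 bins by the number of other shared regions within 500 kb, namely 0 to 13, 14 to 20, 21 to 29 and 30 to 76. These bins held 254, 263, 206 and 254 wide regions. By pileup, the mean score was higher in Lenti-AS for 21.7%, 38.0%, 56.3% and 61.8% of them, from the sparsest to the densest bin. The other shared regions showed the same order, with 31.5%, 49.2%, 58.6% and 70.1%.

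By local background, the shares for wide regions were 15.0%, 35.4%, 50.5% and 66.1% over the same bins, and those of the other shared regions were 26.1%, 45.4%, 62.6% and 78.3%. By fold enrichment the order was broken and went the other way at its ends, with 65.0%, 55.5%, 58.3% and 42.1% for wide regions. For the other shared regions it was 51.9%, 54.5%, 52.8% and 49.1%. Pileup and local background thus moved in the same direction over the bins, in wide and in other shared regions alike. With 2 libraries per group, the trend cannot be told apart from a difference between libraries, and it was not tested.

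**Figure D5:**
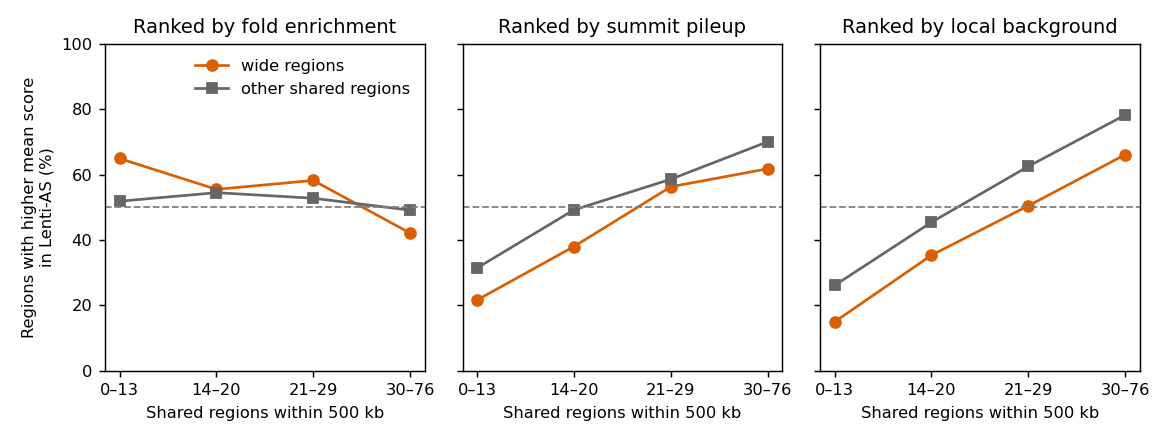
Share of regions with a higher mean score in Lenti-AS than in Lenti-GFP (vertical axis, %), by the number of shared regions within 500 kb (horizontal axis, 4 bins), for scores by fold enrichment, summit pileup and local background. Circles are the wide regions and squares the other shared regions, and the dashed line marks equal numbers in both directions. By pileup the wide regions rise from 21.7% to 61.8%, and by fold enrichment they go from 65.0% to 42.1%.

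The chromosomes differed in the same measures. By pileup, the mean score was higher in Lenti-AS for 69.4% of the 72 wide regions of chromosome 10 and 68.6% of the 35 of chromosome 12, and for 23.5% of the 81 of chromosome 2. By fold, it was higher for 34.7% on chromosome 10, 54.3% on chromosome 12 and 64.2% on chromosome 2. Wide regions of chromosomes 10 and 12 had a median of 30 and 27 shared regions within 500 kb, and those of chromosome 2 had 16. Density did not order the chromosomes throughout. Chromosome 19 had a median of 27 with 36.0% higher by pileup, chromosome 7 had 26 with 43.8%, and chromosome 5 had 25 with 45.8%. These 6 were picked after their values were seen, and the shares are descriptions with no test. Shares for the other shared regions of each chromosome are not given here, so these values are not read as a trait of wide regions.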

How the data were processed

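ATAC-seq was performed on 4 libraries. According to the study's methods, the authors aligned paired-end reads to rn6 with bowtie2, removed duplicates with Picard and called peaks per library with MACS2. Versions and options are not given in the sources used here. The deposited lists hold, for each peak, positions, a fold (a ratio of the summit pileup over local background, with 1 added to each), −log10 p and −log10 q, and a score, which is the deposited −log10 q times a constant. The deposited score was not used for tests. Read counts were not analysed here.

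Peaks of all lists were merged at an overlap of 1 bp. Fold, p-value rank and width of a region came from its strongest or widest peak per list. Summit pileup and local background were solved from fold and −log10 p under the Poisson model of the caller, which fitted 100% of peaks within 0.001 of −log10 p. The genome-wide background, divided by the smallest peak width of the list, served as a relative depth. Normal scores of ranks within a list were compared with limma 3.58.1 (R 4.3.3), by group, over all 31790 shared regions, with Benjamini-Hochberg adjustment at 0.05. Library medians were compared with exact permutation tests. Intervals are Wilson intervals at 95%.

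Named regions were the 6 widest, the 6 highest and 4 lowest by mean fold percentile, the 4 largest score differences per direction without overlap, 2 on each side of 1200 bp, and the longest run. The members and these rules were chosen with earlier results of these data known. Alternatives were other widths, measures, list sizes, overlaps and neighbours, each library left out, and the replicate number as a block.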

Additional observations from a re-analysis of the deposited data

How the results depend on the processing

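The count of 977 wide regions was 2381 at a limit of 1000 bp and 219 at 1500 bp, and 986 to 1343 with each library left out. The difference in median fold percentile (1.66) was -0.209 by summit pileup, and -4.76 to 8.08 with each library left out. The difference in median width (-60 bp) ran from -161 to 41 bp, turning only without Lenti-GFP replicate 1, and that in pileup over background from 8.52 to 27.8. The share with a neighbour (8.80%) was 55.0% within 20 kb, 15.6% with any list and 4.71% between midpoints. In limma, 0 wide regions passed adjustment in the 11 alternatives, while of all regions tested 54 passed with the replicate block, 510 with a replicate block of crossed numbers (added after seeing the data), 4 without Lenti-AS replicate 1, 47 without Lenti-AS replicate 2 and 0 in the others. Wide regions at an unadjusted p under 0.05 numbered 15, 9 higher and 6 lower in Lenti-AS (1.54%, against 8.67% of all regions tested). They numbered 3 over regions in at least 2 lists (0.307% against 5.57%), 28 by −log10 p, 21 higher and 7 lower (2.87% against 9.28%) and 80 by summit pileup, 34 higher and 46 lower (8.19% against 12.2%). They numbered 26 without Lenti-GFP replicate 1, 4 higher and 22 lower (2.66% against 10.6%), 32 without Lenti-GFP replicate 2, 25 higher and 7 lower (3.28% against 12.2%), 2 without Lenti-AS replicate 1 (0.205% against 4.76%) and 3 without Lenti-AS replicate 2 (0.307% against 5.99%). There the remaining library of a group was assumed to vary like the others. Same-numbered libraries deviated in opposite ways (correlation -0.222 over wide regions and -0.197 over all shared regions). With 2 libraries per group, this cannot tell whether same-numbered libraries were prepared as pairs. With the replicate block, 0 wide regions passed adjustment and 5 passed unadjusted (0.512% against 6.82%), and with crossed numbers 0 and 27 (2.76% against 13.3%), with a smallest adjusted p of 0.0759 in limma. The cause of these changes was not tested.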

Other observations

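On chromosome X, which lay outside the rule, 14 of 595 shared regions (2.35%) were wide in all 4 lists.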
